A study of Mus musculus with 18 samples.

Results

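The genes described here are 156 solute carrier genes of the mouse. Their symbols consist of Slc, a family number, letters and a member number, and they were selected on level: a mean of at least 3 CPM (a gene's count over its library's total, scaled as counts per M) over 18 libraries. Of 361 genes with such a symbol among 56953 gene IDs, 197 fell under that limit, and 73 of the 361 had no count in any library. Another 8 transporters of glucose, amino acids, iron or heme (Slc2a1, Slc7a1, Slc7a2, Slc7a11, Slc11a1, Slc11a2, Slc40a1 and Slc48a1) were left out by name. The members just inside the limit were Slc24a5 at 3.11 CPM and Slc25a43 at 3.67 CPM, and just outside it stood Slc25a53 at 2.97 CPM and Slc22a21 at 2.89 CPM. The 156 genes are all protein coding, belong to 40 families and held 1.31% of all counts. They were sorted by family into 10 substrate classes, so a gene with an unusual substrate stays with its family.

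Solute carriers are membrane proteins that move sugars, amino acids, nucleosides, vitamins, metals and inorganic ions across the plasma membrane and the membranes of organelles. Some exchange one solute for another, some couple uptake to a gradient of sodium or protons, and some only let a solute pass down its gradient. In macrophages they supply the fuel and building blocks of the inflammatory response, set the metal content of the cytosol and phagosome, and carry peptides and nucleosides out of the lysosome.

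RNA was measured in cultured bone marrow-derived macrophages, differentiated for 7 days with L929 cell supernatant, which supplies the macrophage growth factor M-CSF. One genotype, B6, was C57BL/6J. The other, T169A, was a knock-in in which alanine replaces a threonine of the kinase RIPK1. Each genotype was left unstimulated, given LPS (lipopolysaccharide, the ligand of TLR4) for 2 hours, or given LPS/5z7 for the same time; 5z7, not expanded in the labels, is commonly short for the TAK1 inhibitor (5Z)-7-oxozeaenol. Each of the 6 groups held 3 libraries, and the sample titles carry letters, A to C in B6 and D to F in T169A, that recur in all treatments of a genotype. The labels do not say whether a letter marks a mouse, a culture or a day, so the p-values rest on a spread among samples that may be technical. The columns of the count table carry no letter, so libraries were not linked across treatments. None of the samples used here had 5z7 alone. In such bulk RNA, fewer cells of a type and less RNA per cell cannot be told apart.

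The libraries held 14.6 to 30.4 M counts each, so 3 counts correspond to 0.0986 CPM in the deepest library and 0.205 CPM in the shallowest, for counting error only. Libraries are named by the running number in the column headers. Unstimulated B6 library 7 stood apart from its group: the SD of its deviations over the solute carrier genes was 0.28 on the log2 scale, against 0.08 to 0.18 in the other 17 libraries. Library 8 of B6 with LPS and library 9 of B6 with LPS/5z7 also differed more from their group than the rest did from each other. Chi-square per degree of freedom was 22.6 and 34.7 for the pairs with library 8 and 5.86 for the remaining pair. It was 11.7 and 17.8 for the pairs with library 9 and 5.17 for the remaining pair. In T169A the same held for library 11 with LPS (27.6 and 51.8 against 7.55) and library 12 with LPS/5z7 (20.7 and 20.3 against 2.89). Macrophage markers summed to 31700 to 44600 CPM per library. The summed markers of other cell types reached at most 3.82 CPM for T cells, 5.11 for B cells, 1.89 for NK cells, 3.13 for dendritic cells, 0.0824 for mast cells and basophils, 0.161 for erythroid cells, 17 for fibroblasts, 47.4 for neutrophils and their precursors and 4.74 for endothelial cells. Neutrophil markers summed to 14.6 to 24.5 CPM in unstimulated B6 cells and to 29.3 to 36.5 CPM with LPS, and fibroblast markers to 3.72 to 6.41 and 8.23 to 9.40 CPM. With LPS/5z7 in B6 the neutrophil markers summed to 19.1 to 28.4 CPM and the fibroblast markers to 11 to 17 CPM. T cell markers went in sum from at most 0.592 CPM unstimulated to 1.14 to 3.03 CPM with LPS in B6, NK cell markers from at most 0.123 to 1.06 to 1.32 CPM, and dendritic cell markers from at most 0.473 to 2.17 to 2.41 CPM. These sums lay largely on single genes: Lck had B6 means of 0.182 and 1.71 CPM, Klrk1 of 0.055 and 1.13, and Zbtb46 of 0.274 and 1.97. Among fibroblast markers, B6 means unstimulated, with LPS and with LPS/5z7 were 0.665, 4.3 and 8.9 CPM for Pdgfrb. They were 2.66, 2.62 and 2.85 for Col1a2, and 1.04, 1.18 and 1.79 for Col1a1. In every library, 1 of 5 T cell markers, 1 of 5 B cell markers, 1 of 4 NK cell markers, 2 of 4 mast cell markers and 2 of 4 erythroid markers were at 0. The part of these cells in the results below was not tested.

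Levels below are CPM after TMM scaling, which adjusts library sizes for differences in composition, and changes are log2 fold changes ± SE from edgeR's quasi-likelihood test. A gene is called where its p-value, adjusted by Benjamini-Hochberg over all 13068 genes tested, is under 0.05. All 156 solute carrier genes were tested. Per kb of exon, the highest mean levels over the 18 libraries were those of Slc6a6 (164 CPM per kb), the taurine transporter, Slc31a2 (151), a copper transporter of late endosomes and lysosomes, and Slc15a3 (143), which exports histidine and small peptides from the lysosome. Slc39a1, the zinc importer ZIP1, followed at 118 CPM per kb, and Slc3a2, the heavy chain that escorts several amino acid transporters to the plasma membrane, at 104 CPM per kb. At the other end stood Slc22a15, of the organic ion transporters, at 0.363 CPM per kb. Summed over the 156 genes, the level lay between 14200 and 14600 CPM in unstimulated T169A libraries and between 11800 and 12300 CPM after LPS. In B6 it was 15000, 14600 and 12300 CPM unstimulated and 12200 to 12700 CPM after LPS, where the groups overlapped through library 7.

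The first question was which transporters 2 hours of LPS changed. In B6 cells 49 of the 156 genes rose (31.4%) and 61 fell (39.1%), where 29.6% of all genes tested rose and 33.5% fell. The median log2 fold change was -0.08 over the solute carrier genes and -0.07 over all genes tested. At least 2-fold higher were 24 members and at least 2-fold lower 15. No share of all genes at that size is given here, so these counts have no background. In T169A cells 46 rose (29.5%) and 57 fell (36.5%), against 30.3% and 31.5% of all genes, with medians of -0.05 and -0.03. The shares of called members were thus near those of all genes, and the members differed widely in direction and size. The same shares over all genes are the background for the counts by substrate class below. Without library 7, 48 rose and 66 fell in B6. The balance of directions rests on the scaling: with library size alone in place of TMM, which shifts the median of all genes by -0.59 in B6 and -0.58 in T169A, 27 members rose and 108 fell in B6, and 25 rose and 110 fell in T169A. Of all 13068 genes tested, 1996 then rose and 8484 fell in B6, and 1934 rose and 8106 fell in T169A. These are the background for the class counts with library size alone below.

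**Figure D1:**
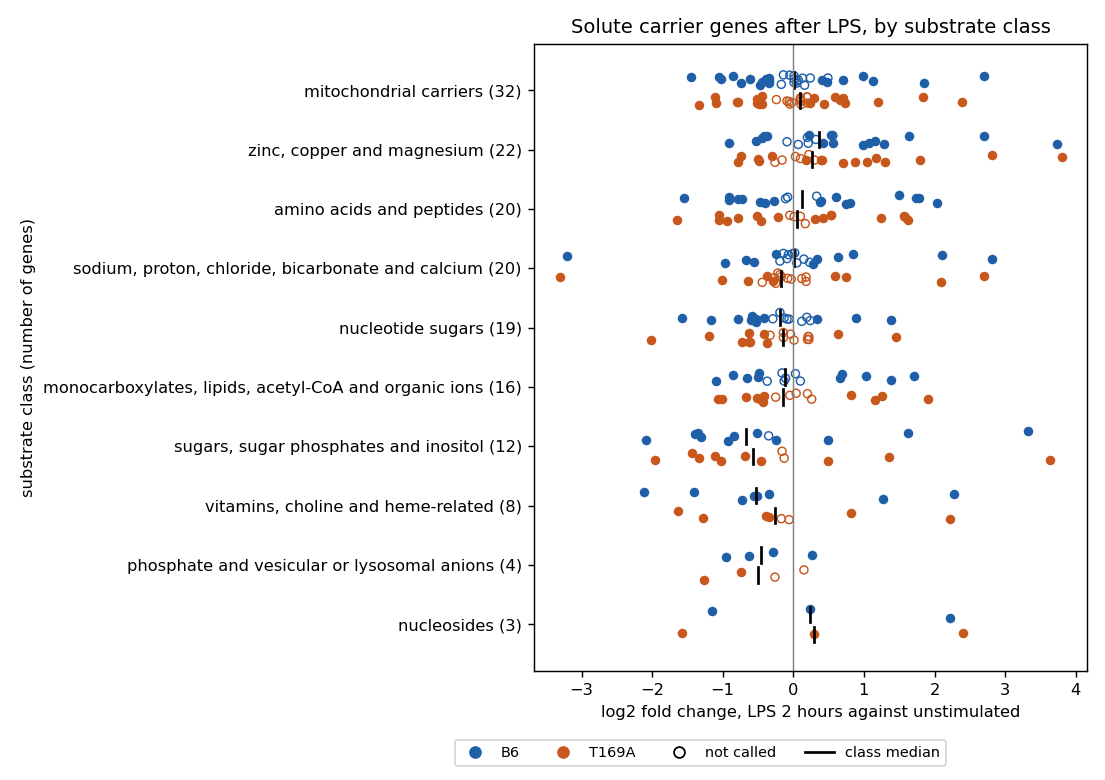
Log2 fold change of each of the 156 solute carrier genes with LPS against unstimulated cells (x axis) by substrate class (y axis, number of genes in brackets), B6 in blue and T169A in orange. Filled points passed the edgeR test, open points did not, and black bars are class medians; the zinc, copper and magnesium class had a median of 0.37 in B6 and the sugar class of -0.67.

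The strongest rise was that of a zinc importer. Slc39a14, which encodes ZIP14, an importer of zinc that also carries iron and manganese, was low without stimulation and high with LPS. In B6 Slc39a14 stood at 24.4, 28 and 17.4 CPM unstimulated, 327, 299 and 313 CPM with LPS and 168, 179 and 188 CPM with LPS/5z7. In T169A Slc39a14 stood at 22.8, 19.9 and 19 CPM unstimulated, 325, 280 and 258 CPM with LPS and 171, 161 and 158 CPM with LPS/5z7. Every LPS library lay far above the unstimulated ones, and the LPS/5z7 libraries lay in between, with no overlap of the 3 groups. The log2 fold change with LPS was 3.74 ± 0.15 in B6 and 3.81 ± 0.15 in T169A (edgeR adjusted p = 6.51e-13 and 5.77e-13). From LPS to LPS/5z7 it fell by 0.81 ± 0.13 and by 0.82 ± 0.13 (edgeR adjusted p = 0.00041 and 0.000393).

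Slc30a4 encodes ZnT4, which moves zinc out of the cytosol into endosomal and secretory compartments. In B6 Slc30a4 stood at 8.86, 10.7 and 6.24 CPM unstimulated, 58.6, 55.1 and 56.2 CPM with LPS and 35.7, 35 and 39.2 CPM with LPS/5z7. In T169A Slc30a4 stood at 9.11, 8.72 and 7.75 CPM unstimulated, 77.6, 54.3 and 46.7 CPM with LPS and 44, 30 and 32.8 CPM with LPS/5z7. The LPS libraries were the highest in both genotypes, and LPS/5z7 lay between, without overlap. It rose with LPS by 2.70 ± 0.20 in B6 and by 2.81 ± 0.20 in T169A (edgeR adjusted p = 2.34e-09 and 1.5e-09). The fall from LPS to LPS/5z7, by 0.63 ± 0.18 in B6 (edgeR adjusted p = 0.0291) and 0.74 ± 0.18 in T169A (0.0115), was less secure. In B6 that call was lost with library size alone (edgeR adjusted p = 0.0608), with no filter on low counts (0.078) and when any 1 of the LPS or LPS/5z7 libraries 2, 3, 5, 6, 8 or 9 was left out (0.075, 0.0903, 0.0619, 0.0901, 0.0565 and 0.0532). In T169A it was lost without library 11, 15 or 18 (0.0754, 0.0703 and 0.0591).

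Copper transporters rose as well. Slc31a1, the high-affinity copper importer CTR1, went from 138, 152 and 116 CPM to 311, 306 and 293 CPM in B6, and Slc31a2, encoding CTR2, from 113, 124 and 121 CPM to 356, 366 and 397 CPM. All LPS libraries lay above all unstimulated ones, with log2 fold changes of 1.16 ± 0.10 and 1.64 ± 0.09 (edgeR adjusted p = 1.15e-08 and 3.57e-11). In T169A the changes were 1.17 ± 0.10 and 1.79 ± 0.09 (edgeR adjusted p = 1.02e-08 and 1.26e-11). With LPS/5z7 both genes stayed above the unstimulated libraries in both genotypes, Slc31a2 at 428, 416 and 450 CPM in B6 and at 431, 452 and 456 CPM in T169A.

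Other metal transporters fell with LPS. Slc39a3, the zinc importer ZIP3, stood in B6 at 34.7, 29 and 29.9 CPM unstimulated and at 17.4, 14.5 and 18.2 CPM with LPS, a log2 fold change of -0.91 ± 0.11 (edgeR adjusted p = 2.11e-06). Slc30a1, which encodes ZnT1, the zinc exporter of the plasma membrane, fell more modestly, by 0.42 ± 0.14 in B6 and 0.74 ± 0.14 in T169A (edgeR adjusted p = 0.0152 and 0.000227). The B6 call of Slc30a1 was lost without library 1 (edgeR adjusted p = 0.0558) or library 8 (0.0791). Slc39a13, the zinc importer ZIP13 of the secretory pathway, just missed the test in B6 (0.56 ± 0.24, edgeR adjusted p = 0.0529) and passed it in T169A (0.71 ± 0.24, edgeR adjusted p = 0.0176). In B6 it was called with DESeq2 (adjusted p = 0.0291), with DESeq2 size factors (edgeR adjusted p = 0.0365) and without library 2, 5 or 7 (0.0319, 0.0383 and 0.0265). In all, 11 of the 22 zinc, copper and magnesium genes rose and 5 fell in B6 (Slc30a1, Slc30a5, Slc39a3, Slc41a1 and Slc41a3), with a median of 0.37. In T169A the counts were again 11 and 5, with a median of 0.26. With library size alone 7 rose and 10 fell in each genotype and the medians turned to -0.22 and -0.32, so the direction of the class as a whole depends on the scaling, whereas Slc39a14, Slc30a4, Slc31a1 and Slc31a2 stayed called higher in both genotypes.

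The promoters of 2 zinc exporters that LPS moved in opposite directions, Slc30a1 and Slc30a4, are shown. Each holds the core of the metal response element, the site of the zinc-sensing factor MTF-1. Another 2 are shown for an LPS-raised and a 5z7-lowered gene. The sequences are RefSeq promoters on GRCm38.p6, from 250 bases before to 50 after the start, written 5′ to 3′ on the strand of the gene, with motif matches in capitals. For Slc30a1 (chr1:191906531-191906830, + strand) and Slc30a4 (chr2:122702614-122702913, - strand) the capitals mark TGCGCNC or TGCACNC, on either strand, with 2 and 3 matches. Not all members of this family hold the core: Slc30a5 (-0.53 with LPS in B6) had 1 match. Slc30a6 (1.28), Slc30a7 (0.54) and Slc30a9 (0.22) had 0. For Slc13a3 (chr2:165473148-165473447, - strand) they mark an NF-kB motif (GGG, any 3 bases, then TTCC), with 1 match, and for Slc20a1 (chr2:129198523-129198822, + strand) the E-box CACGTG, with 2. Another promoter of Slc20a1 (chr2:129206846-129207145, + strand) had 0 E-box matches and is not shown.
Slc30a1: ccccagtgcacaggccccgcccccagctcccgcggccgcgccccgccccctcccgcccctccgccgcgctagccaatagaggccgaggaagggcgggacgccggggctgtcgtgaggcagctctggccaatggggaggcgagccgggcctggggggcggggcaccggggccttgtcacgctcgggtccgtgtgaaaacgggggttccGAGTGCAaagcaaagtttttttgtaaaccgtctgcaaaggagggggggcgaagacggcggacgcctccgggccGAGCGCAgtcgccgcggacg
Slc30a4: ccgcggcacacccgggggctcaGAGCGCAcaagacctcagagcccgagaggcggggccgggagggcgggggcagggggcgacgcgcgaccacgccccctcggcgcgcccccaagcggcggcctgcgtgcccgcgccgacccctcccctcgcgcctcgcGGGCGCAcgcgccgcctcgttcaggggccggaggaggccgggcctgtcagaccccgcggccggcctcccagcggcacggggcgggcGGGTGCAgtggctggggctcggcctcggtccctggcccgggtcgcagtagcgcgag
Slc13a3: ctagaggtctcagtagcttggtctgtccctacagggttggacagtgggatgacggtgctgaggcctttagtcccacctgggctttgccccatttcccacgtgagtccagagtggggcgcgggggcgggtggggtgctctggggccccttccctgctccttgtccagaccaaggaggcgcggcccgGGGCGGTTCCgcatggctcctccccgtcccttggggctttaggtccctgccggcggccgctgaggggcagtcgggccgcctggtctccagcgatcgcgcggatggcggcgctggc
Slc20a1: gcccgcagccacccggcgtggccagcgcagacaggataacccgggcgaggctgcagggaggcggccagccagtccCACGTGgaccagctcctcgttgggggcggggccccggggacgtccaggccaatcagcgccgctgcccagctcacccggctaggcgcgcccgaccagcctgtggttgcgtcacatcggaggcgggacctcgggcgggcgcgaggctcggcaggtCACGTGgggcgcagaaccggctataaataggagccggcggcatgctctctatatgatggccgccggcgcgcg
Of the 156 genes, 120 had a promoter in the table, with 160 promoters in all. The metal response core was in 36.2% of these and in 25.7% of all 32851 promoters of the same length, counting both strands. The NF-kB motif was in 5% and 5.56%. The E-box was in 15.6% of the members' promoters and in 7.15% of all, and TGANTCA, the AP-1 motif, in 5% and 7.81%. Members were selected on level and the 32851 promoters were not, so these shares do not compare genes of like level. A gene with several promoters, some of them overlapping, was counted once for each. Split by the B6 response to LPS, 65 promoters belonged to members that rose, 59 to members that fell and 36 to members not called. In this order the metal response core was in 29.2%, 40.7% and 41.7%, the NF-kB motif in 6.15%, 1.69% and 8.33%, the E-box in 15.4%, 18.6% and 11.1%, and the AP-1 motif in 0%, 10.2% and 5.56%. Such a match describes letters in this window and shows no binding, and the table held no promoter for Slc39a14.

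Among the carriers of sugars, a single hexose transporter rose far above the rest. Slc2a6, which encodes GLUT6, rose about as steeply as Slc39a14. In B6 Slc2a6 stood at 42.8, 41.6 and 43.7 CPM unstimulated, 379, 392 and 519 CPM with LPS and 420, 449 and 558 CPM with LPS/5z7. In T169A Slc2a6 stood at 39.3, 32.2 and 31.4 CPM unstimulated, 403, 424 and 461 CPM with LPS and 466, 529 and 526 CPM with LPS/5z7. Every stimulated library lay above every unstimulated one, while the LPS and LPS/5z7 libraries overlapped in B6. The log2 fold changes with LPS were 3.33 ± 0.14 and 3.64 ± 0.14 (edgeR adjusted p = 2.16e-12 and 8.01e-13). Adding 5z7 gave 0.15 ± 0.13 in B6 and 0.24 ± 0.13 in T169A, neither of which passed the test (edgeR adjusted p = 0.549 and 0.276), although with library size alone T169A did (0.40, 0.0379).

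The other sugar genes mostly moved the other way. Of the 12 members of this class 3 rose in B6 (Slc2a6, Slc5a3 and Slc37a3) and 8 fell, with a median of -0.67. In T169A 3 rose and 7 fell, with a median of -0.58. Slc2a3, the high-affinity glucose transporter GLUT3, fell from 6.74, 6.97 and 5.32 CPM to 2.6, 3.15 and 1.71 CPM in B6 (-1.31 ± 0.22, edgeR adjusted p = 6.2e-05). Slc45a4, of a family of proton-coupled sugar transporters, fell from 42, 38.1 and 45.3 CPM to 9.36, 9.02 and 11.2 CPM, with no overlap (-2.09 ± 0.10, edgeR adjusted p = 1.05e-11). Slc37a2, an abundant exchanger of glucose 6-phosphate for phosphate in the endoplasmic reticulum, stood at 788, 797 and 649 CPM unstimulated and at 412, 402 and 360 CPM with LPS (-0.93 ± 0.09, edgeR adjusted p = 8.91e-08). Slc50a1, a glucose efflux transporter of the SWEET family, was not called in B6 (-0.35 ± 0.21), where library 7 was the highest at 34 CPM against 19.7 and 17.8 CPM; it was called lower without library 4 (edgeR adjusted p = 0.0439) and with library size alone (-0.94). Slc5a6, placed here by its family but a carrier of biotin and pantothenate, fell by 1.39 ± 0.16 (edgeR adjusted p = 9.21e-07). In T169A Slc2a3, Slc45a4, Slc37a2 and Slc5a6 changed by -1.43, -1.96, -1.02 and -1.34, all called lower. Slc2a9, a urate transporter, was called lower in B6 (-0.25 ± 0.09, edgeR adjusted p = 0.0232) but not with DESeq2 (adjusted p = 0.0795), with DESeq2 size factors (edgeR adjusted p = 0.0554), with no filter (0.162), in a fit of these groups alone (0.158), or without library 1, 2, 4 or 8 (0.0836, 0.0703, 0.063 and 0.0655).

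Ion and proton carriers held large changes in both directions. Slc26a11, of the SLC26 anion exchangers, showed the largest fall of any member. In B6 Slc26a11 stood at 106, 96.9 and 122 CPM unstimulated, 11.6, 11 and 13 CPM with LPS and 11.6, 10.4 and 12.2 CPM with LPS/5z7. In T169A Slc26a11 stood at 113, 134 and 129 CPM unstimulated, 11.4, 13.2 and 13.4 CPM with LPS and 11.5, 15.5 and 12.7 CPM with LPS/5z7. The stimulated libraries of both kinds lay far below the unstimulated ones and overlapped one another. Its log2 fold change with LPS was -3.20 ± 0.13 in B6 and -3.31 ± 0.13 in T169A (edgeR adjusted p = 8.34e-13 and 5.72e-13), and adding 5z7 moved it by -0.05 ± 0.13 and 0.06 ± 0.13 (edgeR adjusted p = 0.877 and 0.851).

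Slc4a7, the sodium-bicarbonate cotransporter NBCn1, which brings base into the cell, rose. In B6 Slc4a7 stood at 71.2, 76.8 and 28.5 CPM unstimulated, 474, 427 and 343 CPM with LPS and 312, 331 and 303 CPM with LPS/5z7. In T169A Slc4a7 stood at 56.7, 50.6 and 46.6 CPM unstimulated, 416, 320 and 265 CPM with LPS and 264, 228 and 211 CPM with LPS/5z7. Unstimulated library 7 was the lowest of all 18, and the LPS libraries spread widely, but none came near the unstimulated range. The log2 fold changes with LPS were 2.81 ± 0.27 and 2.70 ± 0.27 (edgeR adjusted p = 7.63e-08 and 1.22e-07), and 2.49 in B6 without library 7. Slc12a4, the potassium-chloride cotransporter KCC1, rose more evenly, from 56.9, 55.2 and 43.8 CPM to 220, 214 and 233 CPM in B6 and from 50.7, 51.2 and 46.3 CPM to 209, 210 and 215 CPM in T169A. Its changes were 2.10 ± 0.09 and 2.09 ± 0.10 (edgeR adjusted p = 4.83e-12 and 4.63e-12). Slc12a2, the sodium-potassium-chloride importer NKCC1, was not called in either genotype (0.15 ± 0.23 and -0.19 ± 0.24, edgeR adjusted p = 0.594 and 0.515), nor was Slc9a9, an endosomal sodium-proton exchanger at 111, 114 and 113 CPM unstimulated and 111, 116 and 123 CPM with LPS in B6 (0.05 ± 0.10, and -0.54 with library size alone). Of the 20 genes of this class 6 rose and 5 fell in B6, and 4 rose and 5 fell in T169A. Scaled by library size alone, 3 rose and 14 fell in B6, and 2 rose and 15 fell in T169A.

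**Figure D2:**
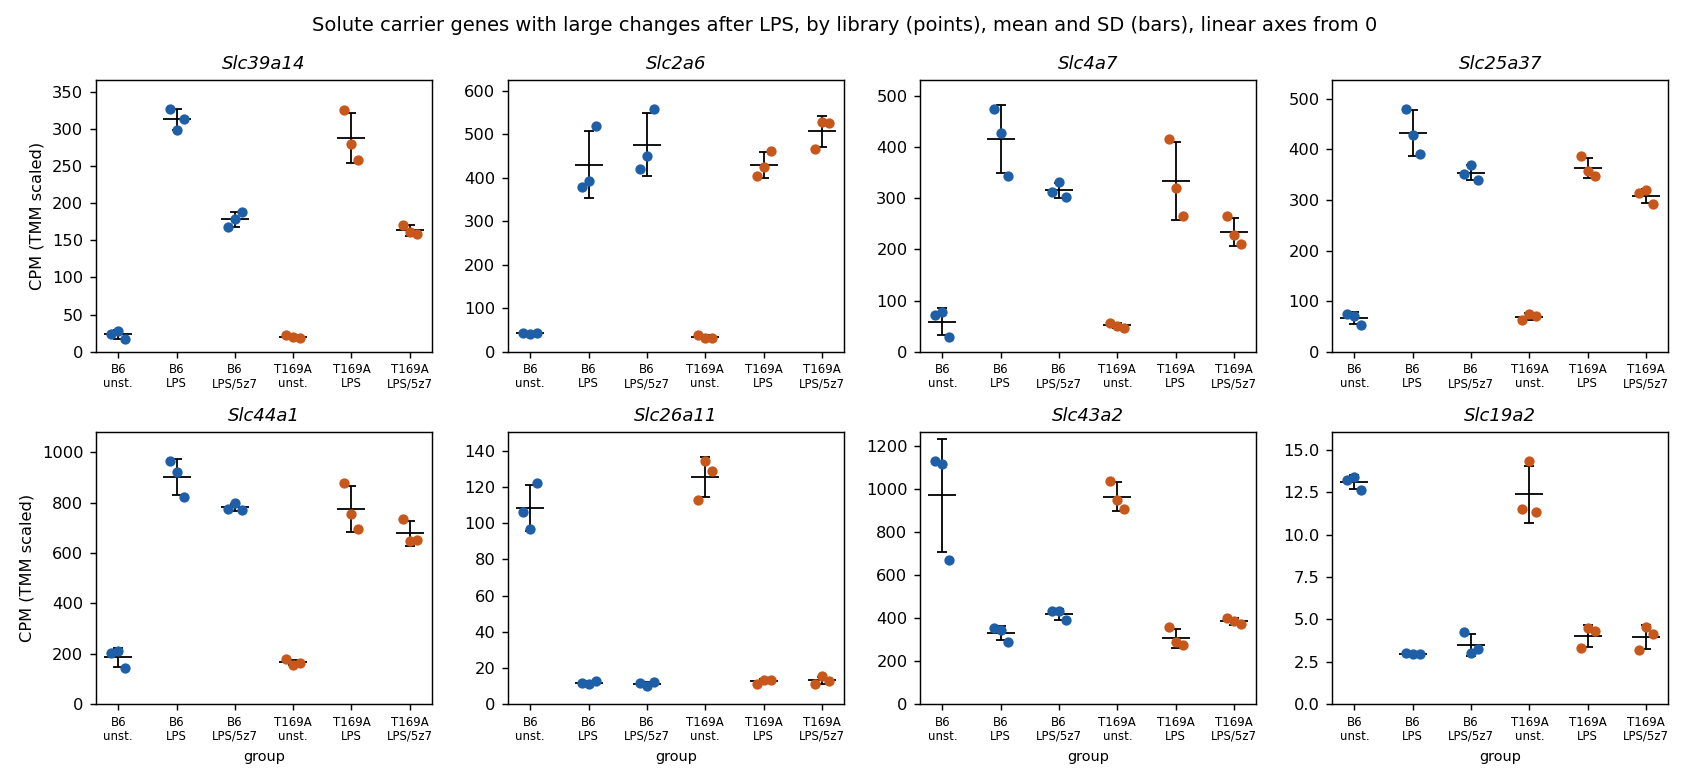
CPM (TMM scaled, linear axes from 0) of 8 solute carrier genes with large changes after LPS, by group; points are the 3 libraries of a group, bars mean and SD, B6 in blue and T169A in orange. Slc39a14, Slc2a6, Slc4a7, Slc25a37 and Slc44a1 were higher in every stimulated library than in any unstimulated one, and Slc26a11, Slc43a2 and Slc19a2 lower.

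Amino acid transporters split by direction. The subunits of the plasma membrane exchangers for large neutral amino acids rose together: Slc7a5, encoding LAT1, from 4.86, 4.64 and 2.64 CPM to 18.5, 17.1 and 15 CPM in B6, and its heavy chain Slc3a2 from 286, 282 and 300 CPM to 446, 456 and 411 CPM. Their log2 fold changes were 2.04 ± 0.18 and 0.60 ± 0.08 (edgeR adjusted p = 3.1e-08 and 3.82e-06), with no overlap of the groups. Slc7a8, encoding LAT2, rose from 394, 406 and 239 CPM to 651, 611 and 544 CPM (0.80 ± 0.14, edgeR adjusted p = 9.42e-05). In T169A the changes were 1.58, 0.53 and 0.53, all called. With library size alone Slc7a5 stayed higher, whereas Slc3a2 stood at 0 in B6 and -0.05 in T169A, and Slc7a8 at 0.21 and -0.05, none of these called.

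By contrast, Slc43a2, encoding LAT4, a facilitator that lets the same amino acids pass without exchange, fell. In B6 Slc43a2 stood at 1130, 1120 and 670 CPM unstimulated, 354, 348 and 292 CPM with LPS and 433, 434 and 391 CPM with LPS/5z7. In T169A Slc43a2 stood at 1040, 949 and 911 CPM unstimulated, 358, 288 and 278 CPM with LPS and 403, 386 and 372 CPM with LPS/5z7. Every stimulated library lay below every unstimulated one, library 7 included. The change with LPS was -1.55 ± 0.16 in B6 and -1.65 ± 0.16 in T169A (edgeR adjusted p = 1.95e-07 and 9.22e-08), and -1.76 in B6 without library 7. Slc1a5, the glutamine and neutral amino acid exchanger ASCT2, was not called in either genotype (-0.08 ± 0.10 and 0.01 ± 0.10). It was called lower in B6 without library 8 (edgeR adjusted p = 0.0389), and with library size alone it was called lower in both genotypes (-0.67 and -0.57). Slc38a2, the sodium-coupled neutral amino acid importer SNAT2, was called higher in B6 only marginally (0.38 ± 0.14, edgeR adjusted p = 0.0285): the call was lost without library 2, 5 or 7 (0.0904, 0.0785 and 0.112) and in a fit of these groups alone (0.0753), and with library size alone the value turned to -0.21. Slc6a6, the taurine transporter, stood at 1390, 1360 and 767 CPM unstimulated and at 1560, 1490 and 1360 CPM with LPS in B6 and was not called (0.33 ± 0.17, edgeR adjusted p = 0.106); it was called without library 1 or 4 (0.0394 and 0.0466), which leaves the low library 7 with 1 other.

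The lysosomal peptide and histidine transporters moved apart. Slc15a3 rose with LPS, while Slc15a4, a close relative that endolysosomal Toll-like receptors need for signalling, fell. In B6 Slc15a3 stood at 361, 346 and 292 CPM unstimulated, 1030, 1130 and 1280 CPM with LPS and 876, 905 and 968 CPM with LPS/5z7. In B6 Slc15a4 stood at 62.7, 64 and 74.1 CPM unstimulated, 36.4, 37.7 and 43.3 CPM with LPS and 59.4, 59.7 and 69 CPM with LPS/5z7. The LPS libraries of Slc15a3 were the highest and those of Slc15a4 the lowest of the 3 conditions, and for Slc15a4 the LPS/5z7 libraries overlapped the unstimulated ones. With LPS, Slc15a3 changed by 1.78 ± 0.10 in B6 and 1.57 ± 0.10 in T169A (edgeR adjusted p = 1.14e-10 and 5.48e-10), and Slc15a4 by -0.78 ± 0.10 and -0.78 ± 0.10 (edgeR adjusted p = 3.93e-06 and 3.58e-06). Exons of Slc15a3 overlap Tmem132a and those of Slc15a4 overlap Gm43474 on the opposite strand, and the strand setting of the counting is not given, so reads of the partners may be shared. Over the whole class, 9 of 20 genes rose and 8 fell in B6, and 8 rose and 8 fell in T169A. With library size alone 4 rose and 11 fell in B6, and 4 rose and 13 fell in T169A.

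Carriers of lactate and other organic acids moved in both directions: over the class 5 of 16 genes rose and 5 fell in B6, and 4 rose and 7 fell in T169A. Slc16a1, encoding the monocarboxylate transporter MCT1, went from 10.6, 9.51 and 9.25 CPM to 20.4, 20.4 and 19.2 CPM in B6, and Slc16a3, encoding the lactate exporter MCT4, from 24.6, 24.1 and 23.6 CPM to 37.3, 36.5 and 43.2 CPM. The log2 fold changes were 1.03 ± 0.10 and 0.69 ± 0.09 (edgeR adjusted p = 1.04e-07 and 3.95e-06), without overlap, but for Slc16a3 the call in B6 was lost with library size alone (0.10, edgeR adjusted p = 0.295). Slc16a10, a facilitator of aromatic amino acids in the same family, rose from 233, 245 and 175 CPM to 589, 575 and 534 CPM (1.38 ± 0.11, edgeR adjusted p = 4.8e-09). Slc13a3, a sodium-coupled importer of dicarboxylates such as succinate, rose from 7.8, 7.09 and 6.45 CPM to 22.3, 22 and 26.2 CPM (1.71 ± 0.16, edgeR adjusted p = 5.82e-08), and its promoter is the one shown above with an NF-kB motif. In T169A the 4 genes changed by 1.16, 0.81, 1.26 and 1.91, all called higher. Slc27a4, a fatty acid transport protein, was flat in B6, at 34.6, 34.9 and 33.5 CPM unstimulated and 35.2, 34.6 and 35.7 CPM with LPS (0.03 ± 0.07), and was not called; with library size alone it turned to -0.56. Library size alone gave 3 rises and 11 falls in the class in B6, and 4 and 10 in T169A. Among the relatives of Slc16a1 that fell in both genotypes, Slc16a6 changed by -0.85 and -1.01, and Slc16a13 by -1.09 and -1.06; they were named after their values were seen.

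Among nucleoside carriers LPS raised Slc28a2 and lowered Slc29a3, and it lowered Slc17a5 of the phosphate and lysosomal anion class. Slc28a2 encodes CNT2, which concentrates purine nucleosides in the cell with sodium. In B6 Slc28a2 stood at 8.99, 9.19 and 6.72 CPM unstimulated, 38.3, 34.6 and 44.1 CPM with LPS and 13.9, 16.6 and 18.5 CPM with LPS/5z7. In T169A Slc28a2 stood at 7.87, 9.07 and 8.08 CPM unstimulated, 56.5, 38.8 and 36.5 CPM with LPS and 20.3, 14.7 and 18.1 CPM with LPS/5z7. The 3 conditions did not overlap in either genotype: LPS was highest, LPS/5z7 lay between. It rose with LPS by 2.22 ± 0.18 and 2.40 ± 0.18 (edgeR adjusted p = 8.03e-09 and 2.94e-09) and fell from LPS to LPS/5z7 by 1.25 ± 0.17 and 1.31 ± 0.17 (edgeR adjusted p = 9.17e-05 and 5.01e-05). Slc29a3, the lysosomal nucleoside transporter ENT3, fell, from 120, 124 and 56.2 CPM to 55.6, 50.1 and 28.5 CPM in B6 (-1.15 ± 0.28, edgeR adjusted p = 0.00161). Libraries 7, 8 and 9 were the lowest of their groups for Slc29a3, and without library 7 its change was -1.42. In T169A it fell by 1.57 ± 0.28 (edgeR adjusted p = 0.000111). Slc17a5, the lysosomal sialic acid exporter sialin, fell from 74.9, 82.7 and 65.1 CPM to 51.3, 47.9 and 44.2 CPM in B6 (-0.63 ± 0.09, edgeR adjusted p = 9.39e-06) and by 0.74 ± 0.09 in T169A. Slc17a9 of the same class, named after its values were seen, changed more in T169A (-1.27 ± 0.18, edgeR adjusted p = 9.95e-06). With DESeq2 its change in B6 was -0.91 (adjusted p = 9.68e-06).

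Among vitamin and choline carriers the largest rise was that of Slc44a1, a choline transporter of plasma and mitochondrial membranes. In B6 Slc44a1 stood at 203, 211 and 144 CPM unstimulated, 963, 921 and 824 CPM with LPS and 776, 798 and 771 CPM with LPS/5z7. In T169A Slc44a1 stood at 179, 158 and 163 CPM unstimulated, 876, 754 and 697 CPM with LPS and 736, 649 and 652 CPM with LPS/5z7. All stimulated libraries lay above all unstimulated ones. The changes with LPS were 2.28 ± 0.13 and 2.22 ± 0.13 (edgeR adjusted p = 1.01e-10 and 1.43e-10). Slc19a2, the thiamine importer, fell from 13.2, 13.4 and 12.6 CPM to 3.04, 2.99 and 2.95 CPM in B6 and from 11.5, 14.3 and 11.3 CPM to 3.31, 4.47 and 4.33 CPM in T169A. Its changes were -2.12 ± 0.16 and -1.63 ± 0.16 (edgeR adjusted p = 3.17e-09 and 7.48e-08). Slc46a3, a lysosomal relative of the folate transporter, fell by 1.40 ± 0.10 and 1.28 ± 0.10, called in both. Slc46a1, the proton-coupled folate and heme transporter, was called lower in B6 (-0.72 ± 0.16, edgeR adjusted p = 0.000784) and not in T169A (-0.06 ± 0.16, edgeR adjusted p = 0.773), and the difference between these effects did not pass the test (0.67 ± 0.23, edgeR adjusted p = 0.916). Of the 8 genes of this class 2 rose in B6 (Slc44a1 and Slc23a2, the ascorbate importer) and 6 fell, and 2 rose and 4 fell in T169A. Under library size alone 2 rose and 6 fell in B6, and 1 rose and 6 fell in T169A. Slc23a2 changed by 1.27 in B6 and by 0.82 ± 0.19 in T169A, the latter not called with library size alone (0.23).

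Mitochondrial carriers, the largest class with 32 genes, had medians near 0: 7 rose and 12 fell in B6 with a median of 0.01, and 10 rose and 10 fell in T169A with a median of 0.10. Scaled by library size alone, 4 rose and 24 fell in B6, and 3 rose and 24 fell in T169A. Slc25a37 encodes mitoferrin-1, the iron importer of the inner mitochondrial membrane. In B6 Slc25a37 stood at 75.2, 70.8 and 53.9 CPM unstimulated, 480, 429 and 390 CPM with LPS and 351, 370 and 340 CPM with LPS/5z7. In T169A Slc25a37 stood at 62.2, 74.9 and 71.3 CPM unstimulated, 386, 358 and 347 CPM with LPS and 313, 319 and 293 CPM with LPS/5z7. It rose in every stimulated library, by 2.70 ± 0.12 with LPS in B6 and 2.39 ± 0.12 in T169A (edgeR adjusted p = 4.22e-12 and 1.65e-11). Slc25a45 fell from 58.9, 63.3 and 68.4 CPM to 20.4, 24.9 and 24.4 CPM in B6 (-1.45 ± 0.09, edgeR adjusted p = 5.1e-10). Slc25a36, a carrier of pyrimidine nucleotides, fell by 1.03 ± 0.11 (edgeR adjusted p = 5.14e-07), and Slc25a40, a mitochondrial glutathione carrier, by 0.61 ± 0.15 (edgeR adjusted p = 0.00241). Slc25a1, the citrate carrier, stood at 43.3, 41.6 and 50.6 CPM unstimulated and 49.6, 48.9 and 53.1 CPM with LPS in B6, and was not called there (0.16 ± 0.09, edgeR adjusted p = 0.141) except without library 7 (0.25, 0.0197). It was called higher in T169A (0.29 ± 0.09, edgeR adjusted p = 0.0138) except with no filter (0.0736) or without library 13 or 17 (0.061 and 0.0732), and with library size alone it turned to -0.29. Slc25a3, the phosphate carrier that supplies ATP synthesis, was not called in either genotype (-0.05 ± 0.13 and 0.19 ± 0.13); with library size alone both values were called lower (-0.65 and -0.38). Slc25a12, an aspartate-glutamate carrier, was called higher in T169A (0.23 ± 0.08, edgeR adjusted p = 0.0144) and not in B6 (0.01 ± 0.08), and turned to -0.35 and -0.58 with library size alone.

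Of the 19 nucleotide sugar carriers of the Golgi and endoplasmic reticulum, 3 rose and 8 fell in B6, with a median of -0.19, and 2 rose and 8 fell in T169A. Among all genes tested 29.6% rose and 33.5% fell in B6, and 30.3% and 31.5% in T169A. Under library size alone 1 of the 19 carriers rose and 17 fell in each genotype. Both ends were relatives without a well-known substrate. Slc35e4 rose from 33.3, 30.2 and 32.5 CPM to 79.3, 79.7 and 90.5 CPM in B6 (1.38 ± 0.12, edgeR adjusted p = 1.36e-08). Slc35e2 fell from 13.8, 14.1 and 11 CPM to 5.48, 3.94 and 3.5 CPM (-1.57 ± 0.17, edgeR adjusted p = 3.73e-07). In T169A they changed by 1.46 and -2.01, both called. Slc35a4 was not called in either genotype by edgeR (0.19 ± 0.10 and 0.20 ± 0.10), although it was in B6 with DESeq2 (adjusted p = 0.0451), and with library size alone it turned to -0.40 and -0.38.

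The second question was what the addition of 5z7 changed in LPS-stimulated cells. In B6, 10 solute carrier genes were higher with LPS/5z7 than with LPS (6.41%) and 17 lower (10.9%), against 7.03% and 6.79% of all genes tested. In T169A 10 were higher (6.41%) and 16 lower (10.3%), against 6.5% and 6.53%. The medians over the members were 0.03 in both genotypes, and 0.02 over all genes. Between LPS and LPS/5z7 in B6 the summed fibroblast markers went from 8.23 to 9.40 CPM to 11 to 17 CPM, largely through Pdgfrb (means of 4.3 and 8.9 CPM). The neutrophil markers went from 29.3 to 36.5 CPM to 19.1 to 28.4 CPM. The part of both lists in these changes was not tested. In T169A the ranges of both lists overlapped (10.2 to 16.5 and 14.3 to 15.6 CPM for fibroblasts, 29.2 to 47.4 and 26.4 to 42.1 CPM for neutrophils). Pdgfrb itself was higher with LPS/5z7 there too, at 4.37, 3.77 and 5.04 CPM with LPS and 7.04, 7.99 and 7.78 CPM with LPS/5z7. For most transporters the test detected no change from the LPS level. The counts depended on the scaling: with library size alone, which shifts the median of all genes by 0.16 in both genotypes, B6 had 45 members higher and 8 lower, and T169A 35 and 9. Of all 13068 genes tested, 2339 were then higher and 516 lower in B6, and 2177 and 530 in T169A. The member counts also fell when a library was left out, as did those of all genes. Over all genes, 919 higher and 887 lower in B6 became 471 to 605 and 629 to 733. In T169A, 850 and 853 became 449 to 795 and 560 to 839. In B6, 5 were higher without library 5, and 6 without library 6, 8 or 9, and the lower count was 11 without library 3 or 5 and 10 without library 6. In T169A, 4 were higher without library 11, 2 without 14, 3 without 15, 6 without 17 and 2 without 18, and the lower count was 10 without 11 or 15 and 8 without 18.

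The genotypes gave nearly the same list from separate libraries. Of the 10 members higher in B6, 8 (80%) were also higher in T169A, which is 80% of the T169A list as well, and of the 17 lower, 15 were shared (88.2% of the B6 list and 93.8% of the T169A list). Over all genes tested the shared shares were 65.1% and 70.4% for higher genes and 81.3% and 84.5% for lower ones. No member was called in opposite directions. The scatter of both genotypes shows 23 members called in both, 7 in 1 of them and 126 in neither.

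**Figure D3:**
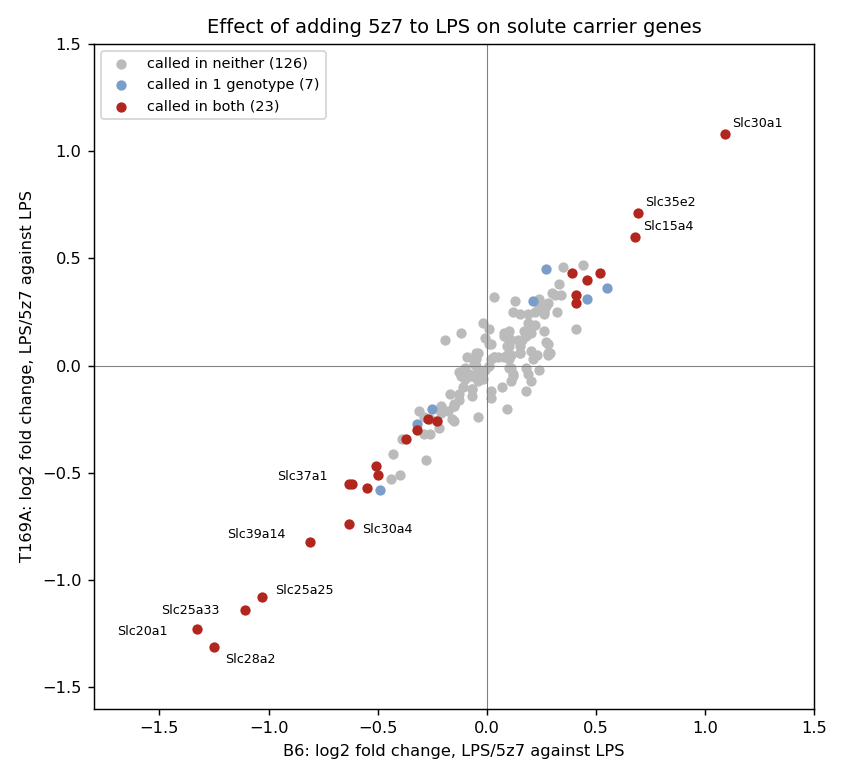
Log2 fold change of LPS/5z7 against LPS for 156 solute carrier genes, in B6 (x axis) and in T169A (y axis), from libraries that the 2 genotypes do not share. Red points were called in both genotypes (23), blue in 1 (7) and grey in neither (126); Slc30a1 is the highest and Slc20a1 and Slc28a2 are the lowest.

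The largest rise with 5z7 was that of the zinc exporter Slc30a1, whose promoter is shown above. In B6 Slc30a1 stood at 74.6, 70.9 and 63.5 CPM unstimulated, 57.3, 53.3 and 45.2 CPM with LPS and 113, 113 and 107 CPM with LPS/5z7. In T169A Slc30a1 stood at 83.5, 71 and 70.7 CPM unstimulated, 56.8, 41.8 and 36.2 CPM with LPS and 110, 87.4 and 89.2 CPM with LPS/5z7. LPS was the lowest and LPS/5z7 the highest condition in both genotypes, and the 3 conditions did not overlap. Adding 5z7 raised it by 1.09 ± 0.14 in B6 and 1.08 ± 0.14 in T169A (edgeR adjusted p = 5.13e-05 and 5.61e-05). Against unstimulated cells LPS/5z7 was higher by 0.67 ± 0.14 in B6 (edgeR adjusted p = 6e-04), a call lost with library size alone (0.24, edgeR adjusted p = 0.0992). In T169A that rise was 0.35 ± 0.14 (edgeR adjusted p = 0.0437) and was lost with DESeq2 (adjusted p = 0.0596), with DESeq2 size factors (edgeR adjusted p = 0.0559) and without library 12, 13, 16 or 18 (0.253, 0.127, 0.156 and 0.0621), and turned to -0.08 with library size alone. Exons of Slc30a1 overlap 1700034H15Rik on the opposite strand. Among the 22 metal transporters Slc39a3 also rose with 5z7 in B6 and T169A, by 0.52 ± 0.11 and 0.43 ± 0.11 (edgeR adjusted p = 0.00531 and 0.0181), the latter lost without library 11, 14, 15 or 18 (0.0841, 0.0582, 0.0517 and 0.0928). The 4 that fell in both genotypes were Slc39a14, Slc30a4, Slc39a6 and Slc30a9.

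Slc15a4, which had fallen with LPS, was at 59.4, 59.7 and 69 CPM with LPS/5z7 in B6 and at 52.1, 62.5 and 66 CPM in T169A, where its LPS libraries stood at 37.7, 40.8 and 40.8 CPM. The rise with 5z7 was 0.68 ± 0.10 in B6 and 0.60 ± 0.10 in T169A (edgeR adjusted p = 0.000234 and 0.000798), with no overlap. Compared with unstimulated cells it was not called in B6 (-0.09 ± 0.10, edgeR adjusted p = 0.457) or in T169A (-0.19 ± 0.10, 0.128), although in T169A it was without library 18 (0.0484), and with library size alone it was called lower in both (-0.52 and -0.61). Its relative Slc15a3 was called lower with 5z7 in B6 (-0.32 ± 0.10, edgeR adjusted p = 0.042), but not with no filter (0.0569), with library size alone (0.267) or without library 3, 5, 6 or 8 (0.146, 0.0747, 0.0921 and 0.141). Slc38a6, a member of the neutral amino acid family SLC38, rose at each step in B6, from 43.5, 47.3 and 45.5 CPM over 63.1, 58.5 and 57.4 CPM with LPS to 75, 79.8 and 83.9 CPM with LPS/5z7. Its changes were 0.39 ± 0.08 with LPS, which turned to -0.20 with library size alone, and 0.41 ± 0.08 with 5z7 (edgeR adjusted p = 0.00033 and 0.0018). Slc35e2, which LPS had lowered, was higher with LPS/5z7 by 0.69 ± 0.18 in B6 and 0.71 ± 0.19 in T169A (edgeR adjusted p = 0.0149 and 0.0184). Its call was lost in B6 without library 3, 5, 6 or 8 (0.0753, 0.0899, 0.0684 and 0.071), and in T169A without library 14, 15, 17 or 18 (0.0936, 0.073, 0.0748 and 0.0663). Slc5a6, the biotin and pantothenate carrier, was called higher in B6 (0.55 ± 0.17, edgeR adjusted p = 0.0457), a call that DESeq2 (adjusted p = 0.0915) and every fit without 1 of the libraries 2, 3, 5, 6, 8 and 9 lost (0.0748, 0.0611, 0.0966, 0.104, 0.175 and 0.205).

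The largest fall with 5z7 in B6 was that of Slc20a1, the sodium-phosphate cotransporter PiT-1. In B6 Slc20a1 stood at 53.9, 58.3 and 42.4 CPM unstimulated, 61.8, 63.4 and 60.7 CPM with LPS and 24.1, 24.7 and 25.3 CPM with LPS/5z7. In T169A Slc20a1 stood at 54.9, 52.7 and 49.6 CPM unstimulated, 57.6, 58.8 and 57.8 CPM with LPS and 23.6, 25.7 and 25 CPM with LPS/5z7. The LPS/5z7 libraries lay below those of both other conditions in each genotype. The change from LPS was -1.33 ± 0.10 in B6 and -1.23 ± 0.09 in T169A (edgeR adjusted p = 7.35e-08 and 1.5e-07). Unlike Slc39a14 or Slc28a2, it ended below the unstimulated level, with changes of -1.06 ± 0.09 and -1.08 ± 0.09 (edgeR adjusted p = 4.03e-08 and 2.96e-08). LPS alone gave 0.26 ± 0.09 in B6 (edgeR adjusted p = 0.0191), lost with no filter (0.0723), in a fit of these groups alone (0.0697) and without library 5 or 7 (0.0594 and 0.0743), and turned to -0.33 with library size alone. Exons of Slc20a1 overlap 9830144P21Rik and Gm4430 on the opposite strand.

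Of the 32 mitochondrial carriers 2 rose with 5z7 in B6 (Slc25a36 and Slc25a45) and 3 fell (Slc25a25, Slc25a33 and Slc25a32). In T169A 1 rose (Slc25a45) and 4 fell (Slc25a25, Slc25a33, Slc25a32 and Slc25a40). Among all genes tested 7.03% rose and 6.79% fell in B6, and 6.5% and 6.53% in T169A. Slc25a36 and Slc25a45 changed by 0.46 and 0.41 in B6, calls lost without library 5, 8 or 9 for the first (edgeR adjusted p = 0.0674, 0.0531 and 0.0598) and without library 2 or 6 or with no filter for the other (0.0711, 0.0566 and 0.0534). Slc25a25, a calcium-regulated exchanger of ATP-Mg for phosphate, was higher with LPS and lower again with 5z7. In B6 Slc25a25 stood at 17.8, 18.5 and 20.1 CPM unstimulated, 35.8, 37.8 and 37.2 CPM with LPS and 19.5, 16.7 and 18 CPM with LPS/5z7. In T169A Slc25a25 stood at 19.7, 19.9 and 19.8 CPM unstimulated, 32.2, 29.6 and 34.4 CPM with LPS and 14.7, 15 and 16 CPM with LPS/5z7. In B6 the LPS/5z7 libraries overlapped the unstimulated ones, and in T169A they lay below them. With LPS it rose by 0.98 ± 0.08 and 0.70 ± 0.08 (edgeR adjusted p = 1.2e-08 and 8.64e-07), the latter lost with library size alone (0.11, edgeR adjusted p = 0.23). From LPS to LPS/5z7 it fell by 1.03 ± 0.08 and 1.08 ± 0.08 (edgeR adjusted p = 2.05e-07 and 1.5e-07). Slc25a33, a carrier of pyrimidine nucleotides, was scarce, at 5.4, 5.67 and 8.39 CPM with LPS and 3.08, 3.2 and 2.56 CPM with LPS/5z7 in B6. It fell by 1.11 ± 0.20 there and by 1.14 ± 0.20 in T169A (edgeR adjusted p = 0.0011 and 0.000795).

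**Figure D4:**
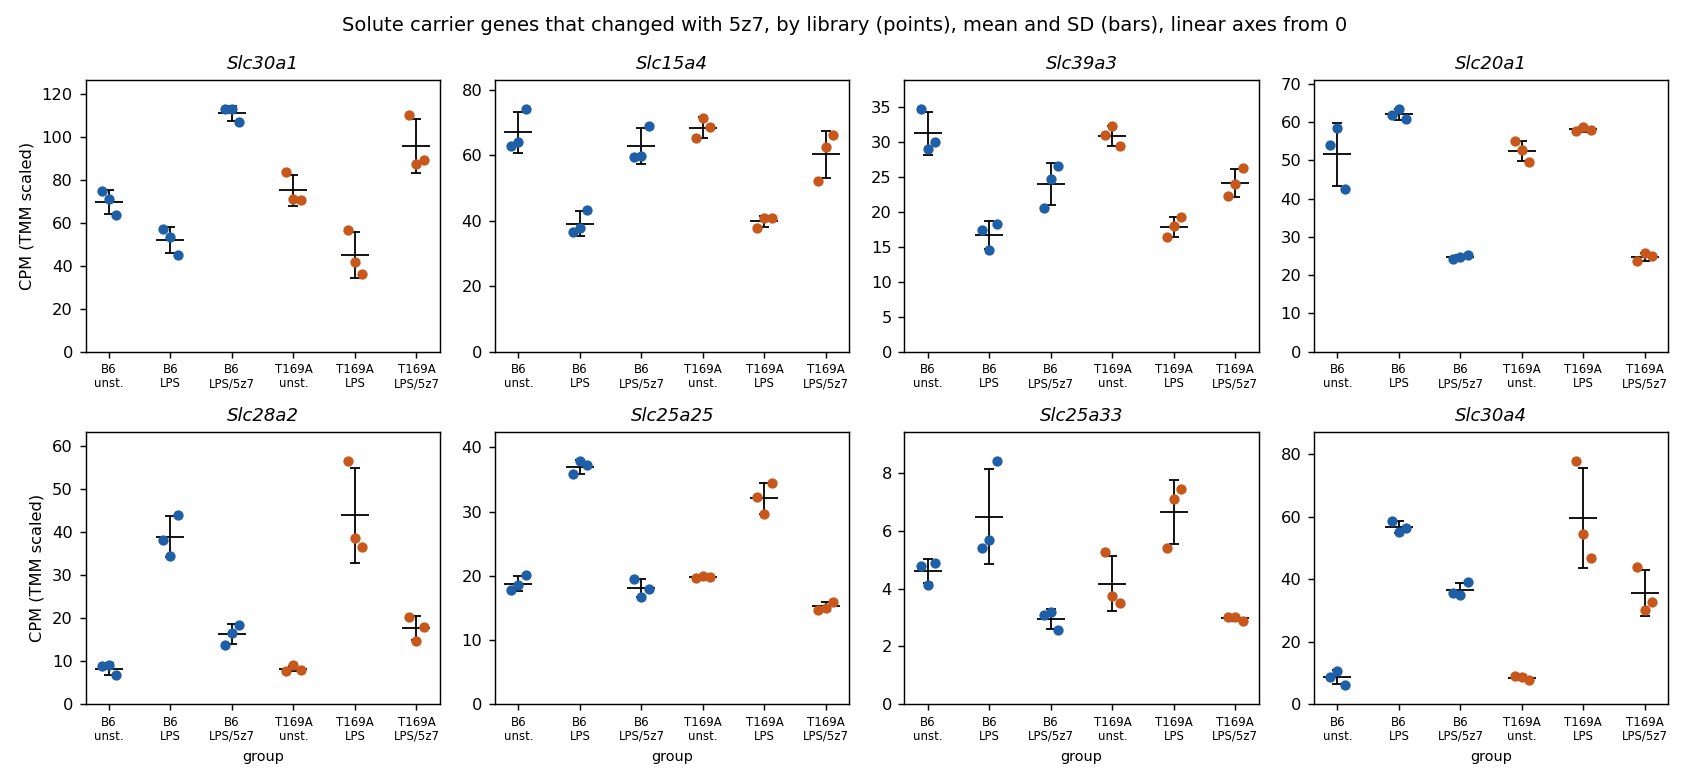
CPM (TMM scaled, linear axes from 0) of 8 solute carrier genes that changed with 5z7, by group; points are the 3 libraries of a group, bars mean and SD, B6 in blue and T169A in orange. Slc30a1, Slc15a4 and Slc39a3 were higher with LPS/5z7 than with LPS, and Slc20a1, Slc28a2, Slc25a25, Slc25a33 and Slc30a4 lower.

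Several LPS-raised transporters were lowered in part by 5z7. Slc16a1 stood at 14.3, 14.9 and 12.9 CPM with LPS/5z7 in B6 and Slc16a10 at 393, 397 and 373 CPM, each between its LPS and its unstimulated libraries. The changes from LPS were -0.51 ± 0.10 and -0.55 ± 0.11 in B6 (edgeR adjusted p = 0.00228 and 0.00197) and -0.47 ± 0.10 and -0.57 ± 0.11 in T169A (edgeR adjusted p = 0.00475 and 0.00155). Slc35e4 fell likewise, by 0.62 ± 0.11 and 0.55 ± 0.11 (edgeR adjusted p = 0.00126 and 0.00356). Slc12a4 fell by 0.37 ± 0.09 and 0.34 ± 0.09 (edgeR adjusted p = 0.0123 and 0.0181). Its call was lost in B6 without library 3 (0.0567) and with library size alone (0.118), and in T169A without library 18 (0.068), with no filter (0.0771) and with library size alone (0.152). Slc7a5 and Slc7a8 lay lower in every LPS/5z7 library than in any LPS library in both genotypes without passing the test: -0.44 ± 0.17 and -0.53 ± 0.17 for Slc7a5 (edgeR adjusted p = 0.102 and 0.0547), -0.39 ± 0.14 and -0.34 ± 0.14 for Slc7a8 (0.0776 and 0.127). In a fit of the compared groups alone both were called in both genotypes (Slc7a5 0.0209 and 0.0228, Slc7a8 0.00613 and 0.019).

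Other strong LPS responders were not called for 5z7 in B6 by the edgeR test over all groups. The log2 fold change from LPS to LPS/5z7 in B6 was -0.21 ± 0.13 for Slc44a1, -0.29 ± 0.11 for Slc25a37, -0.40 ± 0.25 for Slc4a7 and 0.14 ± 0.15 for Slc13a3 (edgeR adjusted p = 0.331, 0.103, 0.363 and 0.655). As with Slc7a5 and Slc7a8, every LPS/5z7 library of Slc25a37 and Slc4a7 lay below every LPS library in both genotypes. For Slc44a1 this held in B6, while in T169A the libraries overlapped. In an edgeR fit of these groups alone Slc25a37 (0.0308) and Slc4a7 (0.0243) were called lower, and DESeq2 called Slc25a37 lower too (adjusted p = 0.0403). Of the LPS-lowered genes, Slc19a2 (0.24 ± 0.18), Slc45a4 (0.20 ± 0.10) and Slc37a2 (0.10 ± 0.09) were not called either, except Slc45a4 and Slc37a2 with library size alone (0.36 and 0.26). Slc45a4 and Slc37a2 stood at 11, 10.4 and 12.3 CPM and at 424, 430 and 403 CPM with LPS/5z7. Against unstimulated cells, 48 members were higher with LPS/5z7 in B6 and 53 lower, where 27.6% and 27.9% of all genes were, and in T169A 46 were higher and 55 lower, where 28.1% and 27.5% were. With library size alone the counts were 31 and 93 in B6 and 27 and 98 in T169A. This comparison shares its libraries with those above.

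The third question was whether the T169A change of RIPK1 altered these genes. No member was called different between the genotypes by edgeR, where 0.214% of all genes were called in unstimulated cells, 0.222% with LPS and 0.161% with LPS/5z7. At an unadjusted p under 0.05 there were 6, 10 and 10 members, and DESeq2 called 0 in each condition. Some genes fall under that unadjusted limit without any true difference, and no share over all genes is given for it here. The median SE over the members was 0.11, 0.12 and 0.12, so modest differences could have gone undetected. In a fit of the LPS/5z7 groups alone 2 members were called lower in T169A, Slc23a2 (-0.41, edgeR adjusted p = 0.0324) and Slc4a7 (-0.42, 0.0325).

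The gene nearest to a genotype difference was Slc24a5, which encodes a potassium-dependent sodium-calcium exchanger of intracellular membranes known from pigment cells. In B6 Slc24a5 stood at 3.88, 3.19 and 3.44 CPM unstimulated, 4.08, 4.26 and 3.89 CPM with LPS and 4.89, 3.55 and 3.63 CPM with LPS/5z7. In T169A Slc24a5 stood at 1.94, 2.28 and 2.28 CPM unstimulated, 2.62, 2.11 and 2.59 CPM with LPS and 2.54, 2.2 and 2.51 CPM with LPS/5z7. Every T169A library lay below every B6 library, whatever the condition. The difference was -0.69 ± 0.15 unstimulated, -0.74 ± 0.16 with LPS and -0.74 ± 0.16 with LPS/5z7, and missed the threshold each time (edgeR adjusted p = 0.0985, 0.0871 and 0.0796). Exons of Slc24a5 overlap Myef2 on the opposite strand, so without the strand setting its reads cannot be told from those of Myef2. The members with the next smallest p were not called either: Slc13a3 in unstimulated cells (-0.49 ± 0.17), Slc45a4 with LPS (0.30 ± 0.10) and Slc25a25 with LPS/5z7 (-0.25 ± 0.08).

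The effects of treatment did not differ detectably between the genotypes. For LPS against unstimulated cells, 5z7 added to LPS, and LPS/5z7 against unstimulated cells, edgeR called 0 members, where 0, 0 and 0% of all genes were called. At an unadjusted p under 0.05, again without a share over all genes, there were 4, 0 and 4 members, and DESeq2 called 0 in each. The smallest adjusted p-values among the members were 0.916, 1 and 0.83 (edgeR). With LPS, 42 of the 49 members that rose in B6 (85.7%) were also called higher in T169A, which is 91.3% of the T169A list, and 55 of the 61 that fell (90.2%), which is 96.5% of the T169A list. Over all genes tested these shares were 89.7% and 87.5% for higher genes, 84% and 89.2% for lower ones. No solute carrier gene was called in opposite directions.

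Transport depends on more than the genes named Slc. Of 18 transporters tested that belong to the solute carrier series but carry other symbols, 4 rose and 6 fell with LPS in B6 (median -0.21) and 3 rose and 8 fell in T169A (median -0.24). Spns1, a lysosomal lysophospholipid transporter, was lower, with changes of -0.84 ± 0.09 in B6 and -0.86 ± 0.09 in T169A (edgeR adjusted p = 4.13e-07 and 3.46e-07). Beside these counts stand the shares over all genes tested, 29.6% higher and 33.5% lower in B6 and 30.3% and 31.5% in T169A. Of 15 partner proteins and ion pumps that set the gradients which the carriers use, 6 rose and 1 (Ostm1) fell in B6 (median 0.24), and 7 rose and 1 fell in T169A. Atp2a2, the calcium pump of the endoplasmic reticulum, went from 172, 173 and 131 CPM to 291, 275 and 279 CPM in B6 (log2 fold change 0.83 ± 0.09, edgeR adjusted p = 6.54e-07). With 5z7 it was called lower than with LPS in B6 (-0.30 ± 0.09, edgeR adjusted p = 0.0428). These lists were fitted with TMM only.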

How the data were processed

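RNA of 18 libraries in 6 groups of 3 was analysed. The authors deposited a table of raw counts. The submitters' processing notes name featureCounts, STAR, Trim Galore and the build GRCm39; the strand setting and the handling of reads that match several places are not given in the sources used here. The columns name the group and a running number, and were assigned to groups by those names. Symbols came from GENCODE M21 by gene ID (52029 of 56953 IDs, 99.8% of counts).

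Genes passing edgeR's filter on low counts (filterByExpr, 13068 genes) were scaled by TMM and fitted as 6 group means (edgeR 4.0.16 quasi-likelihood, R 4.3.3), with Benjamini-Hochberg adjustment over all of them and a threshold of 0.05. The SE is the absolute log2 fold change over the square root of F. The scripts were tested on simulated data. TMM factors lay between 1.24 and 1.28 in unstimulated, 0.83 and 0.86 in LPS and 0.93 and 0.96 in LPS/5z7 libraries. Replicates differed beyond sampling noise in every pair (chi-square per degree of freedom 2.89 to 101). Alternatives were DESeq2 1.42.0, its size factors, library size alone, other filters, the compared groups alone, other limits on the mean and each library left out. The gene counts do not show the amino acid change, so the genotype labels were not checked by them.

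Members and lists were chosen with earlier results of these data known. Named genes were, in each B6 treatment comparison, the 8 called members with the largest changes in each direction without overlap of libraries; per class, the called member with the smallest p for LPS and the most abundant uncalled one; per genotype comparison and difference, the 3 with the smallest p; the 8 most abundant members; a fixed set; and the neighbours of the limit. Members listed beside a count of up to 8, and Slc5a3, Slc37a3, Slc23a2, Slc22a15, Slc39a1, Slc30a6 and Slc30a7, were named after their values were seen.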

Additional observations from a re-analysis of the deposited data

How the results depend on the processing

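Library size alone in place of TMM moved the counts of solute carrier genes most. With LPS, 27 rose and 108 fell in B6, and 25 rose and 110 fell in T169A. From LPS to LPS/5z7, 45 rose and 8 fell in B6, and 35 rose and 9 fell in T169A. From unstimulated cells to LPS/5z7, 31 rose and 93 fell in B6, and 27 rose and 98 fell in T169A. The counts of all genes under this scaling are given above. The median over all genes moved by -0.59, 0.16 and -0.43 in B6 and by -0.58, 0.16 and -0.42 in T169A in these comparisons, and changes are best read relative to that shift. A total of 37 values of named genes turned their sign and were called under TMM, under this alternative or under both, each of them between 0 and 0.53 under TMM. Values called under neither that crossed 0 are not counted. For LPS in B6 they became -0.33 for Slc20a1, -0.37 for Slc24a5, -0.43 for Slc25a1, -0.58 for Slc25a12, -0.12 for Slc25a33, -0.57 for Slc25a43, -0.56 for Slc27a4, -0.40 for Slc35a4, -0.21 for Slc38a2, -0.20 for Slc38a6, -0.38 for Slc39a4 and -0.54 for Slc9a9. For LPS in T169A they became -0.57 for Slc1a5, -0.43 for Slc20a1, -0.41 for Slc24a5, -0.29 for Slc25a1, -0.35 for Slc25a12, -0.38 for Slc25a3, -0.47 for Slc25a43, -0.55 for Slc27a4, -0.38 for Slc35a4, -0.41 for Slc38a2, -0.27 for Slc38a6, -0.05 for Slc3a2, -0.48 for Slc6a6 and -0.05 for Slc7a8. For LPS/5z7 against unstimulated B6 cells they became -0.25 for Slc25a1, -0.35 for Slc25a12, -0.29 for Slc27a4, -0.02 for Slc7a8 and -0.29 for Slc9a9. In T169A they became -0.04 for Slc25a1, -0.30 for Slc25a12, -0.33 for Slc25a3, -0.23 for Slc27a4, -0.08 for Slc30a1 and -0.42 for Slc9a9.

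Leaving out each library in turn gave 47 to 51 members higher and 56 to 66 lower with LPS in B6, and 41 to 45 and 53 to 58 in T169A. For LPS/5z7 against LPS it gave 5 to 8 and 10 to 13 in B6, and 2 to 9 and 8 to 13 in T169A. For LPS/5z7 against unstimulated cells it gave 43 to 48 and 47 to 56 in B6, and 41 to 44 and 48 to 55 in T169A. For LPS/5z7 against LPS the counts of all genes fell too, as given above. The genotype comparisons and the differences of effects stayed at 0 members, except that a fit of the compared groups alone called 2 with LPS/5z7. The results tried under each alternative include the genotype comparisons and differences of effects, where the edgeR fit called no member. A value called in neither fit counts as kept, even where it turned its sign. DESeq2 kept the call or its absence in 696 results, lost the call in 4 and gained one in 8. The unfiltered fit kept 689, lost 16 and gained 3, and leaving out a library kept 5175, lost 118 and gained 17. Where a call was lost or gained, the cause was not tested.

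Limits: 3 libraries a group leave small changes undetected, and 1.31% of the counts fall on these genes. Opposite-strand exons overlap 41 members and same-strand exons 9. No paired analysis was possible because the columns of the count table carry no replicate letter, and their running numbers are not tied to the letters of the titles by any label.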
